A study of Mus musculus with 4 samples.

Results

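Places in the mouse genome where CTCF peaks lie close together were described across 3 stages of osteoblast differentiation. The peaks of 3 lists, 1 per stage, were merged into union regions wherever they shared at least 1 bp on chromosomes 1 to 19, which gave 68920 regions. A region was counted as densely packed when 10 or more other regions started within 50 kb on either side of its own start, a window of 100 kb in all. Members were thus chosen by measured values, the peak positions of these same lists. This rule was met by 12204 regions, or 17.7% of the total, and they are called members below. Consecutive members whose starts lay no more than 50 kb apart were joined into a neighbourhood, and there were 968 neighbourhoods.

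CTCF is a DNA-binding protein with many zinc fingers that recognises a long motif. It is best known as an insulator protein and, together with the cohesin ring, as the anchor of chromatin loops and of the borders of topological domains. Where several CTCF sites lie next to each other, as at some gene clusters, they can act on the same loops and borders.

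Chromatin immunoprecipitation and sequencing were carried out in MC3T3-E1 subclone 4, a clonal line of preosteoblasts from mouse skull bone (strain C57BL/6, passages 28 to 31), with a CTCF antibody from Millipore. At day 0 the cells were proliferating preosteoblasts. At day 9 they were osteoblasts depositing matrix, and at day 28 they were mineralizing osteoblasts. Ascorbic acid and beta-glycerophosphate were the agents that induced differentiation, and the labels name no other treatment and no genetic change in any group. Each stage was represented by 1 list, although the submitters prepared 2 independent repeats per stage, so no spread between repeats could be measured and no test between stages was possible. An input library from day 9 cells was not analysed here.

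Chromosomes 1 to 19 carried 65943, 41808 and 44650 peaks at days 0, 9 and 28. The later lists thus had 0.634 and 0.677 times the length of the first. The score of a peak is taken to be the peak caller's −10 log10 of the p-value. Scores pile up at 3100, and a peak of 3100 or more is called saturated here. The read depth behind the lists is unknown, so scores were compared mainly as ranks within a list. Fixed scores were also used, 3100 for saturation and 200 in an alternative setting. They need not mean the same in each list. Intervals in brackets beside shares are 95% Wilson intervals. They cover counting error only, and neighbouring regions are not independent of each other. All positions are in the mm9 build and are counted from 1. No gene was assigned to a position, because the gene tables at hand are of another build.

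Members took up a small part of the genome. The neighbourhoods spanned 80.1 Mb in sum, or 3.32% of the 2412 Mb between the first and the last region of the chromosomes. Inside them there were 15.2 members per 100 kb, against 2.86 regions per 100 kb over the whole span. The median region had 5 neighbours (quartiles 3 and 8), and the median member had 12. These values follow from the rule and are given as a description. Among the neighbourhoods, 130 held a single member, 188 held 2 to 4, 187 held 5 to 9, 296 held 10 to 19, 141 held 20 to 49 and 26 held 50 or more. The 167 neighbourhoods of 20 or more members contained 6284 members, or 51.5% of the total. The span of a neighbourhood ran from 0.146 kb to 2032 kb, with a median of 54.0 kb. Over all regions, 4667 (6.77%) were saturated in all 3 lists. Such a region lay in 7 of the 130 neighbourhoods with a single member, in 52 of the 188 with 2 to 4, in 89 of the 187 with 5 to 9, in 204 of the 296 with 10 to 19 and in 157 of the 167 with 20 or more. These counts grow with the number of members by itself.

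Among neighbourhoods of 20 or more members, the one with the highest share of members in all 3 lists was an array on chromosome 4 with many saturated scores. It lay at chr4:88367717-88491907 and held 25 members, of which 22 (88%) were in all 3 lists. It had 25 peaks at day 0, 22 at day 9 and 23 at day 28. Within it, 15 sites between chr4:88402757 and chr4:88452693 were saturated at every stage. These sites made up 60% of the members of the neighbourhood, and the next highest share of this kind among neighbourhoods of 20 or more members was 28.6%.

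The saturated sites of the chromosome 4 array were evenly spaced. Of the 14 steps between their starts, 13 were between 2826 and 2995 bp long, with a median of 2932 bp. The remaining step was 10373 bp long, or 3.54 times that median. The sites were also alike in width, from 1454 to 1694 bp with a median of 1611 bp, while other members saturated in all 3 lists had a median width of 1228 bp. The last 12 sites followed each other without another region between them. Of the other 10 members, 7 were in all 3 lists, 2 were in the day 0 list alone and 1 was in the day 0 and day 28 lists. One of these flanking sites, chr4:88468752-88469547, scored 1469.65, 870.39 and 1842.04 at days 0, 9 and 28. The other flanking sites found at both day 0 and day 28 had a lower score at day 28 than at day 0. Scores of different lists are not on a common scale, so this shows no change in binding. Read coverage, DNA copy number and sequence along the array were not examined here. Whether its peaks mark single binding sites of CTCF was thus not tested.

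Among the same neighbourhoods the lowest share of members in all lists was on chromosome 6, and the next lowest was on chromosome 8. Both were packed with regions found at day 0 alone. At chr6:114398608-114625392, 3 of 46 members (6.52%) were in all 3 lists and 37 (80.4%) were in the day 0 list alone. There were 45 peaks at day 0, 8 at day 9 and 4 at day 28. At chr8:126001255-126178557, 9 of 65 members (13.8%) were in all 3 lists and 50 (76.9%) were in the day 0 list alone. Its peaks numbered 65, 14 and 10 at the 3 stages. The chromosome 6 stretch thus had 0.178 times as many peaks at day 9 and 0.0889 times as many at day 28 as at day 0, and the chromosome 8 stretch had 0.215 and 0.154 times as many. Most regions that made these stretches dense came from the day 0 list, and the stretches were picked for their low shares in all lists. Their low ratios, here and beside other neighbourhoods below, follow in part from this choice and are given as a description.

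The length of the lists bears on these counts, because the median day 0 score of both stretches was below the 560.49 of all regions. It was 166.03 on chromosome 6 and 324.27 on chromosome 8. With each list cut to equal length, which keeps day 0 peaks of a score of at least 314.53, the chromosome 6 stretch had 6, 8 and 3 peaks at days 0, 9 and 28, so the excess at day 0 over day 9 was gone. The chromosome 8 stretch had 35, 14 and 8 peaks, with ratios of 0.40 and 0.229 to day 0, while the lowest ratio among the other 165 neighbourhoods of that size was 0.667 for either stage. With scores of at least 200 in every list, the stretches had 15, 3 and 3 peaks and 51, 4 and 5 peaks. A score of 200 need not mean the same in each list, because depth is unknown. Both settings were chosen after seeing the data.

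The chromosome 8 stretch was close to a continuous block of day 0 peaks. Its regions covered 47.5% of its length, and the next highest value among neighbourhoods of 10 or more members was 28.5% (median of the others 12.8%). Between chr8:126043837 and chr8:126151678, a length of 107.8 kb, 52 regions followed each other of which none was in all 3 lists. Of these, 47 were in the day 0 list alone and 5 were also in the day 9 list, where their scores were 109.47 to 117.14, close to the lowest score of 100 in that list. None was in the day 28 list. In this run the regions covered 68.4% of the length, with a median width of 1511.5 bp and a median gap of 214 bp. Their day 0 scores ran from 104.08 to 829 with a median of 311.0, below the day 0 median of 560.49 over all regions. The strong sites stood at the edge: chr8:126151897-126153757 and chr8:126177101-126178557 were saturated at all 3 stages.

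The chromosome 6 stretch was looser. Between chr6:114447336 and chr6:114625392, a length of 178 kb, 41 regions followed each other of which none was in all 3 lists, and 35 were in the day 0 list alone. Only 5 of them had a day 9 peak, with scores from 104.01 to 173.36, and 1 had a day 28 peak. The day 0 scores of the 37 members found at day 0 alone ran from 106.54 to 302.88, with a median of 147.9. The 3 sites in all lists lay together on the left side. They started at chr6:114411110, where the scores were 1313.63, 507.25 and 334.48 at days 0, 9 and 28. The other two started at chr6:114412485, with 1460.74, 400.99 and 568.26, and at chr6:114429482, with 1039.34, 512.78 and 373.36.

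Outside these stretches, runs of that kind were short. In any other neighbourhood, the longest run of consecutive members without one in all 3 lists had 9 regions, at chr8:119748074-119806717. The surroundings of both stretches had ordinary shares: within 500 kb on either side of the chromosome 8 stretch, 49 of 94 regions (52.1%) were in all 3 lists and 32 (34.0%) were in the day 0 list alone, and around the chromosome 6 stretch the numbers were 28 of 50 (56.0%) and 16 of 50 (32.0%). Read coverage and DNA copy number along these stretches were not measured here, so whether their peaks mark single binding sites of CTCF was not tested.

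**Figure D1:**
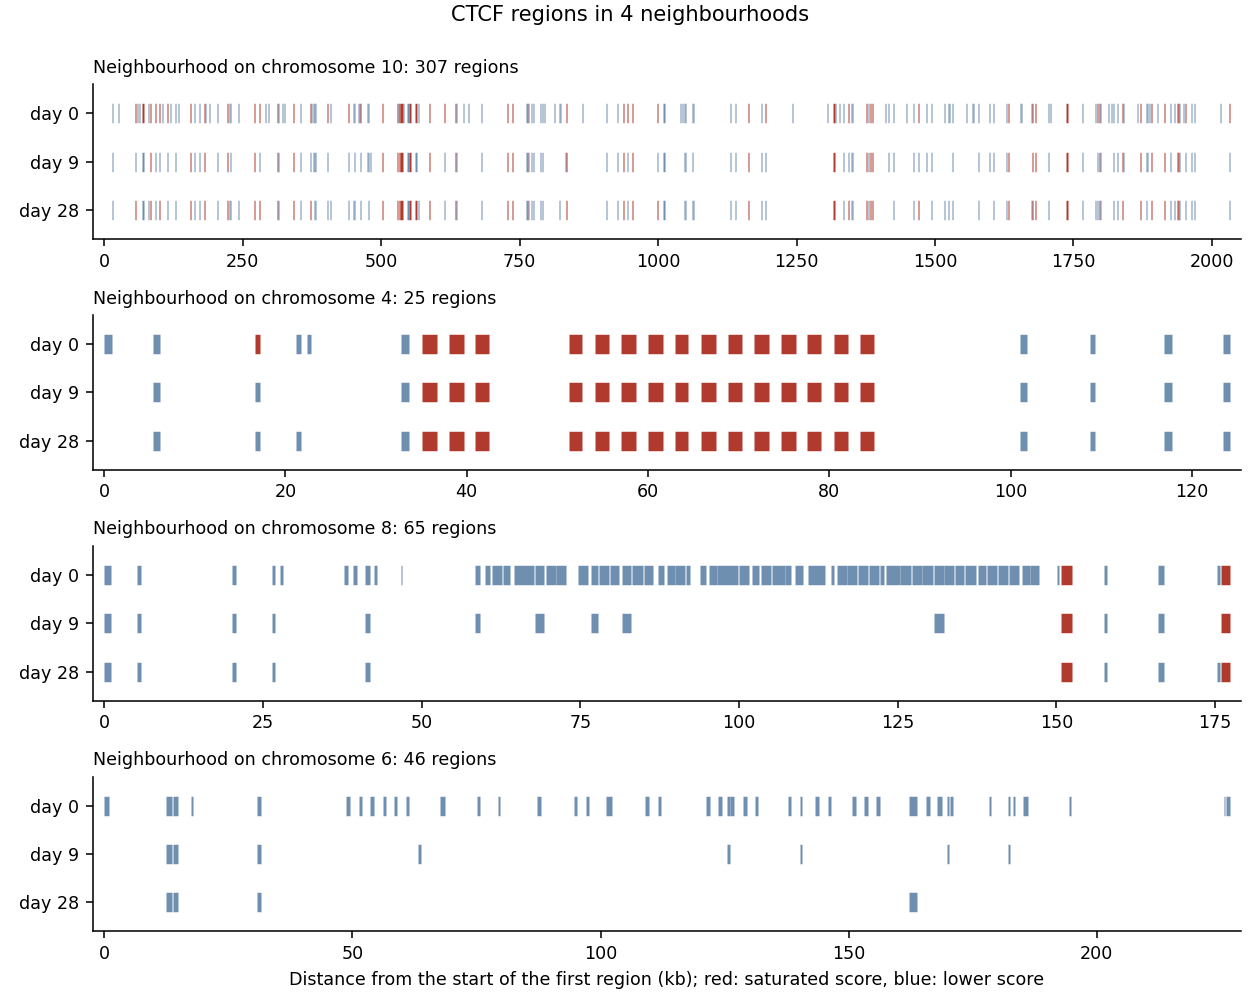
Maps of 4 neighbourhoods on chromosomes 10, 4, 8 and 6, with the distance from the start of the neighbourhood in kb on the x axis and a row for each stage; each bar is a union region drawn where that stage has a peak, red if saturated and blue if lower. The even red bars on chromosome 4 stand in all 3 rows, while most blue bars of chromosomes 8 and 6 stand in the day 0 row, with 65 and 45 peaks; at equal list length these were 35 and 6.

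A search for other evenly spaced runs was chosen after seeing these patterns. A run was 5 or more consecutive steps between region starts, the longest at most 1.2 times the shortest. On chromosomes 1 to 19 there were 6 such runs, and 3 consisted of members only. They were the 12 sites on chromosome 4, 7 regions at chr6:114447336-114462386 with a median step of 2370.5 bp, and 7 regions at chr8:126126675-126138504 with a median step of 1694.5 bp. The runs on chromosomes 6 and 8 thus lay inside the day 0 stretches. The 3 runs without a member had median steps of 5812.5 bp on chromosome 2, 103370 bp on chromosome 7 and 9160 bp on chromosome 19.

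The largest neighbourhood was on chromosome 10, at chr10:79074815-81107179. It held 307 members over 2032 kb, and the next longest spanned 756 kb. Of its members, 166 (54.1%) were in all 3 lists, 95 were in the day 0 list alone, 6 in the day 9 list alone and none in the day 28 list alone. It had 306, 207 and 193 peaks at days 0, 9 and 28, and 49 of its members were saturated in all of them. In consecutive bins of 500 kb it held 96, 57, 55, 95 and 4 members, and the share in all 3 lists was 47.9%, 63.2%, 60%, 52.6% and 25%. The densest bins at either side thus had lower shares than the bins between them.

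The next largest neighbourhoods differed in how much of them was seen at every stage. On chromosome 2, chr2:167198418-167954573 had 114 members, of which 48 (42.1%) were in all 3 lists, with 112, 57 and 62 peaks at days 0, 9 and 28. On chromosome 8, chr8:72719730-73444573 had 103 members, of which 58 (56.3%) were in all lists, with 102, 65 and 64 peaks. On chromosome 2, chr2:32158142-32869076 had 100 members, of which 53 (53.0%) were in all lists, with 100, 59 and 66 peaks. The later stages were thinner at chr5:125340216-126006386, where 33 of 86 members (38.4%) were in all lists and the peaks numbered 85, 43 and 50. Chromosome 19 had a pair of 84 members each. At chr19:3881898-4310441, 35 (41.7%) were in all lists, with 85, 38 and 47 peaks, and at chr19:5641221-6136831 34 (40.5%) were, with 84, 40 and 45 peaks. The share was higher again at chr7:19565032-19991362, with 41 of 72 members (56.9%) and 72, 46 and 45 peaks, and at chr4:151254250-151707647, with 37 of 67 members (55.2%) and 67, 42 and 45 peaks. The tenth by size was the chromosome 8 stretch of day 0 peaks described above.

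Across all 167 neighbourhoods of 20 or more members, the ratios of later to day 0 peak numbers centred near the ratios of the list lengths. The median ratio of day 9 to day 0 peaks was 0.633 (quartiles 0.575 and 0.717), and the median ratio of day 28 to day 0 peaks was 0.657 (quartiles 0.581 and 0.742). The median share of members in all 3 lists was 53.3% (quartiles 47.7% and 58.9%). Among them, 2 had at least as many peaks at day 9 as at day 0, and 1 of these also at day 28. At chr11:114489057-114720452 there were 22, 23 and 19 peaks at days 0, 9 and 28, a ratio of 1.05 at day 9. At chr4:41449415-41703784 there were 18, 18 and 20 peaks, with ratios of 1.00 and 1.11. At chr17:28341008-28531930 there were 25, 24 and 22 peaks, and 20 of 27 members (74.1%) were in all lists. These counts are small, and with 1 list per stage they carry no error.

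High ratios at day 28 were also seen at 2 other places on chromosome 11. There were 19, 16 and 18 peaks at chr11:113466509-113593865, a ratio of 0.947, and 44, 38 and 41 peaks at chr11:116884817-117299821, a ratio of 0.932. The third highest share of members in all lists was at chr8:107739059-107922324, with 17 of 23 (73.9%). At the other end, below the ordinary range but above the chromosome 6 and 8 stretches, chr11:69098008-69252938 had 26, 9 and 12 peaks, a day 9 ratio of 0.346. At chr2:154365144-154505838 there were 21, 10 and 8 peaks, a day 28 ratio of 0.381, and 6 of 23 members (26.1%) were in all lists.

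**Figure D2:**
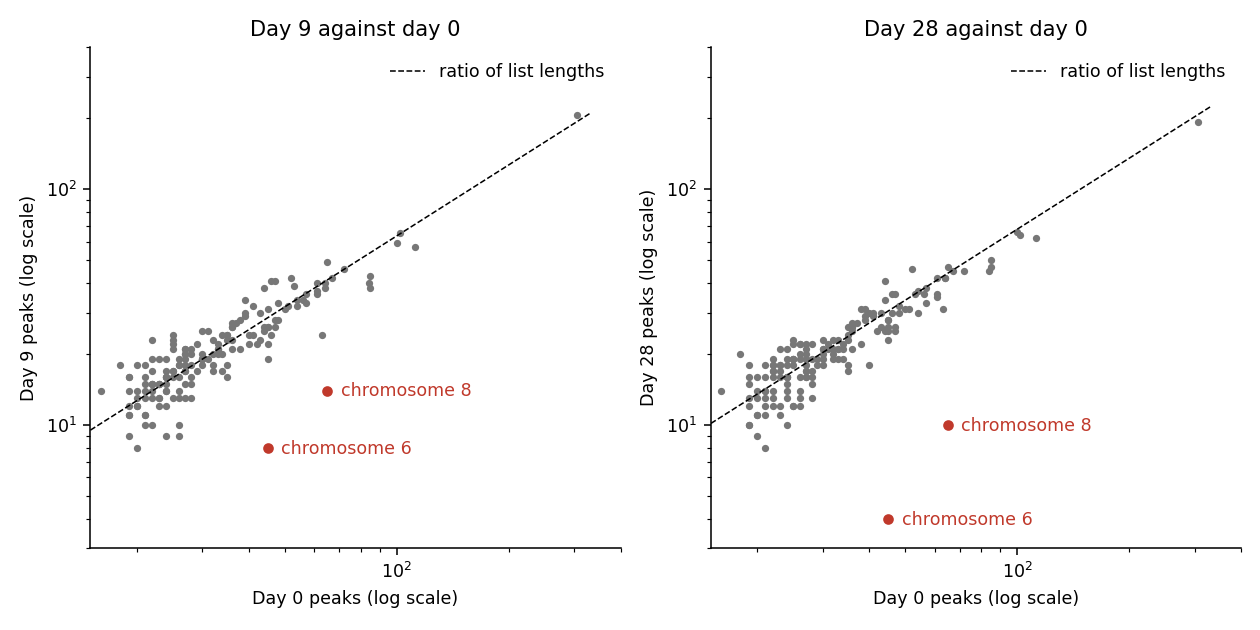
Number of peaks at day 9 (left) and day 28 (right) on the y axis against day 0 on the x axis, both on log scales, for the 167 neighbourhoods of 20 or more members, each a point; the dashed line is the ratio of the list lengths. Most points lie near the line, and the chromosome 8 and chromosome 6 stretches, in red, lie below it with 14 and 8 peaks at day 9; the lists are used at full length here.

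Member regions were spread unevenly over the chromosomes. On chromosome 11, 1659 of 5367 regions (30.9%, interval 29.7 to 32.2%) were members. Chromosome 19 followed with 734 of 2441 (30.1%, 28.3 to 31.9%) and chromosome 17 with 803 of 3172 (25.3%, 23.8 to 26.9%). The lowest shares were on chromosome 13, with 134 of 2708 (4.95%, 4.19 to 5.83%), chromosome 14, with 136 of 2403 (5.66%, 4.80 to 6.66%), and chromosome 18, with 127 of 1958 (6.49%, 5.48 to 7.66%). The intervals of the 3 highest and the 3 lowest chromosomes did not overlap. The same chromosomes also differed in regions per Mb, which ran at 45.2, 41.8 and 34.4 on chromosomes 11, 19 and 17 and at 23.1, 19.7 and 22.3 on chromosomes 13, 14 and 18.

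**Figure D3:**
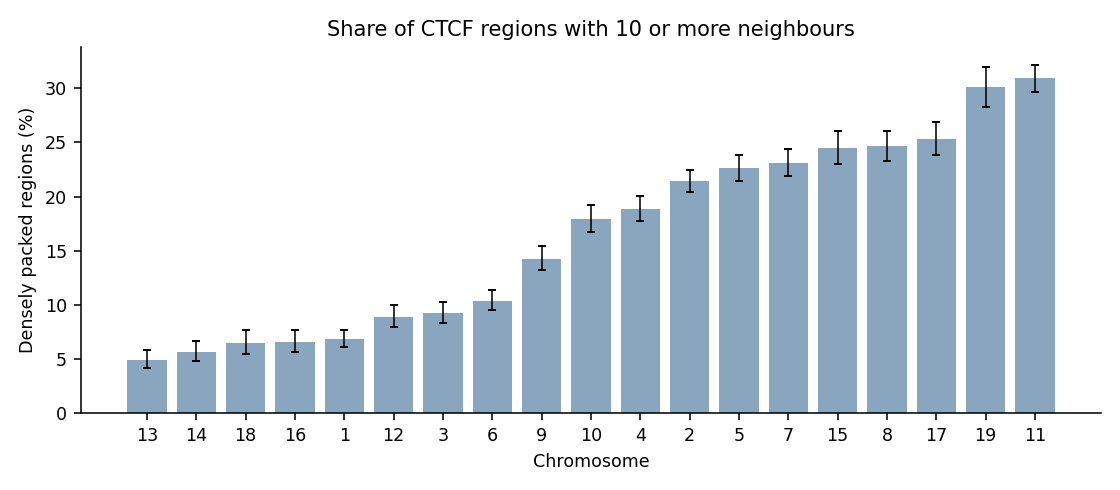
Share of each chromosome's union regions that have 10 or more neighbours, in percent, with 95% Wilson intervals as error bars. Chromosomes 11 and 19 stand highest at 30.9% and 30.1%, and chromosome 13 stands lowest at 4.95%.

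Members were found at every stage about as often as other regions. Of the members, 6427 (52.7%, 51.8 to 53.5%) were in all 3 lists, against 29710 of the 56716 other regions (52.4%, 52.0 to 52.8%). Over all regions the share was 52.4%. Isolated regions stood apart: the share was 38.2% (36.8 to 39.7%) for regions with 0 neighbours, 49.3% with 1 or 2, 54.9% with 3 to 5 and 54.8% with 6 to 9, so members lay slightly below the classes next to them. Within chromosomes, the share was higher in members than in the other regions on 14 of 19 and lower on chromosomes 8, 9, 16, 18 and 19, with differences from −3.83 percentage points on chromosome 18 to 4.57 on chromosome 12. At the far end of packing the share was lower. Of the 531 members with 20 or more neighbours, 41.1% (36.9 to 45.3%) were in all 3 lists and 44.8% in the day 0 list alone. Without the chromosome 6 and 8 stretches, 446 such members had 48.0% (43.4 to 52.6%) and 37.4%.

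Regions of the day 0 list alone made up 3877 members (31.8%, 30.9 to 32.6%) and 30.9% of the other regions, beside 31% of all regions. Regions of the day 9 list alone were rare in both, with 153 members (1.25%) and 710 other regions (1.25%), beside 1.25% of all. The day 28 list differed from these. Regions found at day 28 alone made up 207 members (1.70%, 1.48 to 1.94%) against 1680 other regions (2.96%, 2.83 to 3.10%), beside 2.74% of all regions. This share was lower in members than in the other regions on 19 of 19 chromosomes, with a median difference of −1.51 percentage points, and it was looked at by chromosome after the overall values had been seen. Of the pairs of lists, 506 members (4.15%, 3.81 to 4.51%) were in the day 0 and day 9 lists, against 3.51% (3.36 to 3.66%) of the other regions, and 873 (7.15%) were in the day 0 and day 28 lists, against 7.48%.

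The lists had close shares of their peaks in members. They were 11887 of the day 0 peaks (18.0%, 17.7 to 18.3%), 7574 of the day 9 peaks (18.1%, 17.7 to 18.5%) and 7797 of the day 28 peaks (17.5%, 17.1 to 17.8%). Because the union is dominated by the longest list, the rule was also applied to the peaks of 1 list at a time. It was then met by 11227 day 0 peaks (17.0%), 2071 day 9 peaks (4.95%) and 2205 day 28 peaks (4.94%). With each list cut to its highest-scoring peaks, as many as the shortest list holds, it was met by 1797 day 0 peaks (4.30%), 2071 day 9 peaks and 1502 day 28 peaks (3.60%). Of the members, 10600 were dense by the day 0 peaks alone, and at equal length the day 9 list had the most packed peaks.

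A core of the neighbourhoods was dense by the peaks of each stage alone. Of the 68920 regions, 1216 were dense in this way, and 1209 of these (99.4%) were members. They lay in 182 neighbourhoods and were a part of the 12204 members. A region dense by 1 list is nearly always dense in the union, so the high share of members follows from the rule. The chromosome 10 neighbourhood had 92 of the 1209. It was followed by chr17:35645242-36075196, with 28 of its 64 members, and by the chromosome 4 array, with 21 of 25. Between the later stages, 1264 regions were dense by both the day 9 and the day 28 peaks, which is 65.7% of the regions dense at day 9 and 59.1% of those dense at day 28. Of all 68920 regions, 1923 were dense by the day 9 peaks and 2138 by the day 28 peaks.

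Members carried more of the strongest peaks and were wider. The share of saturated peaks among member regions was 21.6% (20.8 to 22.3%) in the proliferating cells of day 0. Day 9 followed with 17.0% (16.1 to 17.8%) and day 28 with 24.6% (23.7 to 25.6%). Among the other regions it was 17.8% (17.5 to 18.1%), 10.6% (10.3 to 11.0%) and 18.0% (17.6 to 18.4%), and over all regions with a peak it was 18.5%, 11.8% and 19.1%. Regions with 6 to 9 neighbours came closer, at 21.2% (20.6 to 21.8%), 13.9% (13.3 to 14.6%) and 22.5% (21.8 to 23.2%). At day 0 their interval overlapped that of members, so the difference there was mainly from regions with fewer neighbours. Regions with 0 neighbours had the lowest shares, at 8.09%, 3.20% and 6.83%. The share was higher in members than in the other regions on 16 of 19 chromosomes at day 0 and on 18 at each later stage. At day 0 the exceptions were chromosomes 13, 18 and 19. At day 9 it was chromosome 13, and at day 28 it was chromosome 18. Saturated at all 3 stages were 1217 members (9.97%, 9.45 to 10.5%), against 3450 other regions (6.08%, 5.89 to 6.28%) and 1.35% of the regions with 0 neighbours.

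The excess lay at the top of the lists and not in the middle. The median score percentile of members within their list was 49.5, 51.0 and 49.7 at days 0, 9 and 28, next to 50.1, 49.8 and 50.05 for the other regions. The upper quartile was 77.5, 80.6 and 80.3 in members and 74.6, 74.0 and 74.0 in the other regions. The lower quartile was 24.8, 24.3 and 24.5 in members and 25.1 at days 9 and 28 in the others. Neighbourhoods thus held both very strong and ordinary weak peaks. The median width of a member region was 746 bp (quartiles 541 and 1046), against 629 bp (468 and 855) for the other regions, and it was larger in members on 19 of 19 chromosomes, by 11 to 182 bp. Regions of 2 kb or more made up 2.75% of members and 0.986% of the others. Where peaks lie close together a union region can join several of them: 436 members (3.57%) held more than 1 peak of a list, against 1262 other regions (2.23%). Their part in the difference of width was not tested.

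**Figure D4:**
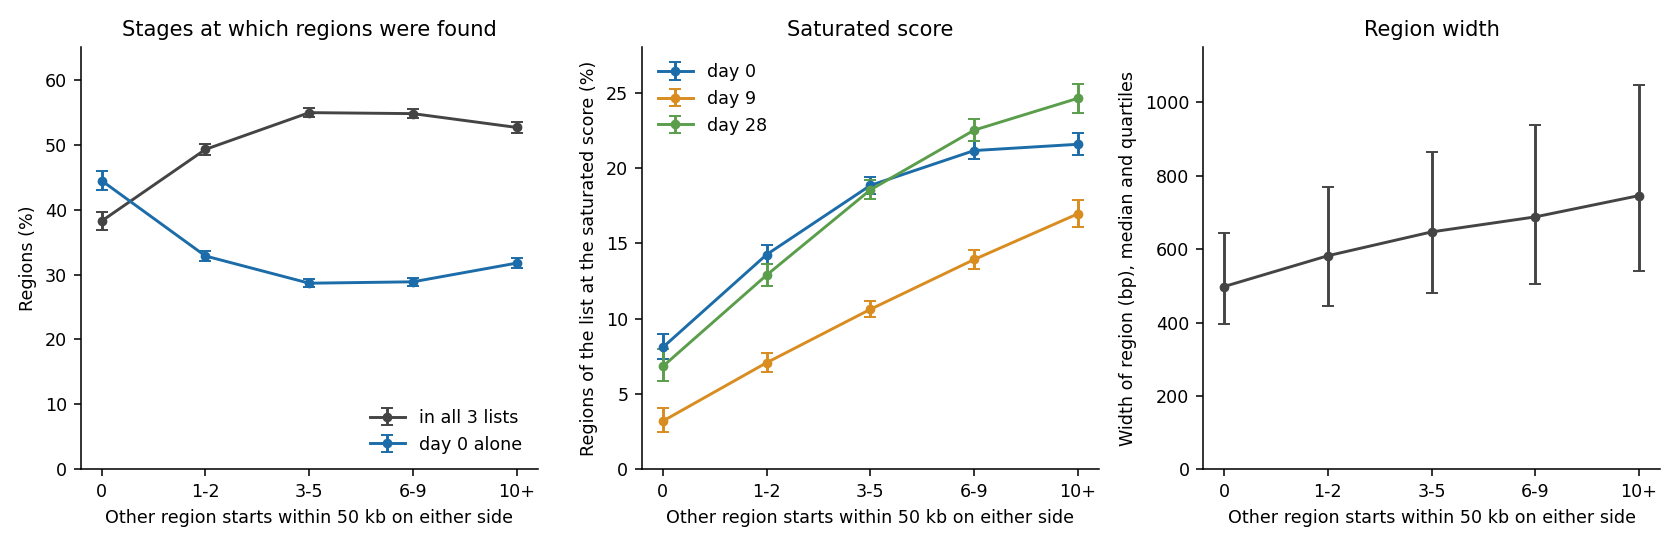
Share of regions in all 3 lists and at day 0 alone (left), share of each list's regions with a saturated peak (middle) and median region width in bp with quartiles as bars (right), for regions with 0, 1 to 2, 3 to 5, 6 to 9 and 10 or more neighbours on the x axis; error bars on the shares are 95% Wilson intervals. The saturated share and the width are highest in the densest regions, at 24.6% for day 28 and 746 bp, while the share in all lists is highest at 3 to 5 neighbours, at 54.9%, and 52.7% in members.

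The members with the most neighbours, taken 1 per neighbourhood, were of different kinds. The highest count was 50 and was shared by 5 members of the chromosome 8 stretch. One of them was chr8:126103345-126104434, a peak of the day 0 list alone with a score of 218.17. In that stretch 53 members had more neighbours than any member elsewhere. With the day 0 list cut to equal length, the highest count by its own peaks was 26. In the other neighbourhoods the highest was 28, at chr11:98792692-98795327, which was saturated at all 3 stages. The remaining 3 had 27 neighbours each and were weaker. The region at chr15:78699149-78699730 was in the day 0 list alone with a score of 111, near the lowest of its list. The region at chr2:167387612-167388251 was in the day 0 list alone with 211.4. The region at chr19:4211847-4212695 scored 640.21 at day 0 and 155.91 at day 28 and was not in the day 9 list.

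Ranks of shared regions were compared between stages where a region had exactly 1 peak in each list and no score was saturated, which left 3690 members and 19282 other regions. From day 9 to day 28 the score percentile of members differed by −2.97 at the median (quartiles −12.1 and 6.52), that of the other regions by 0.25. The rank was higher at day 28 in 41.4% of the members and in 50.9% of the others. The median difference went down from 2.05 for regions with 0 neighbours over 1.17, 0.36 and −0.93 to −2.97 for members. Within members it showed no further steady decline with packing. It was −3.13 with 10 to 12 neighbours, −2.59 with 13 to 15, −3.26 with 16 to 19 and −1.99 with 20 or more. The last class held 106 of these members, and the interval of its median, −5.13 to 1.25, includes 0. The median difference was lower in members than in the other regions on 18 of 19 chromosomes, the exception being chromosome 3. With regions split into 3 classes of equal size by mean rank, low, middle and high, a split chosen after seeing the data, it was −1.81, −4.64 and −2.89 in members against 0.93, 0.11 and −0.02 in the others.

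The differences from day 0 depended on the choice of regions. Without saturated regions, the members' median was −2.04 from day 0 to day 9 (others 0.43) and −4.63 from day 0 to day 28 (others 0.35). With saturated regions kept as ties, which gave 6013 members and 28511 others, these medians were 0.76 (others 0.80) and 3.43 (others 4.89), so the direction in members turned. Members still lay below the others from day 0 to day 28, at the overall median and on 11 of 19 chromosomes, and above them on 3. The median from day 9 to day 28 was then −3.60 in members and −0.41 in the others, lower in members on 17 of 19 chromosomes. At least 1 saturated score was held by 38.6% of the shared members and by 32.4% of the other shared regions. In members, the difference between days 9 and 28 was the one that kept its direction both ways, while in the other regions it was the one that turned, from 0.25 to −0.41. Regions saturated at both stages compared are tied, so they all have the same shift, which depends on the number of ties. Saturated scores were held by 38.0%, 18.3% and 28.4% of the shared members at days 0, 9 and 28. In the other shared regions the values were 31.1%, 11.5% and 21.3%. The medians with ties kept are therefore no separate check of the direction, and the part of the ties was not tested.

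**Figure D5:**
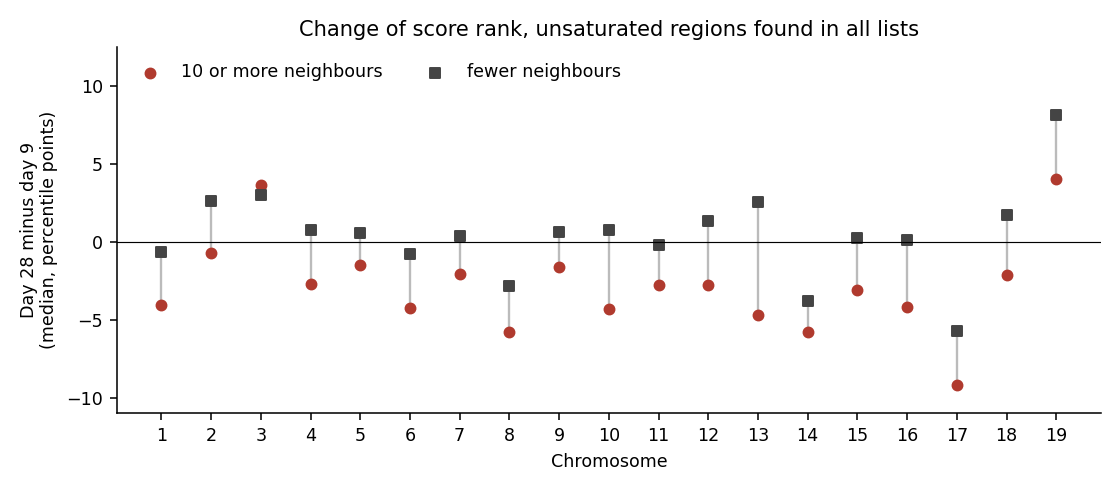
Median difference in score percentile between day 28 and day 9 on each chromosome, in percentile points, for members and for regions with fewer neighbours, over regions with 1 unsaturated peak in each list. Members lie below the other regions on 18 of the 19 chromosomes.

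Within neighbourhoods, consecutive regions started a median of 4.78 kb apart (quartiles 2.29 and 9.24), against 12.9 kb (4.71 and 32.8) for all regions. Members present in all 3 lists were 8.33 kb apart, against 22.7 kb for all regions of that kind. The nearest other site saturated at every stage lay 25.6 kb (9.54 and 49.9) from such a member and 84.1 kb (31.3 and 217) from such a region elsewhere. The rule shapes these distances, so they describe the neighbourhoods only. Gaps of under 1 kb between the edges of consecutive members made up 2228 of 11236 (19.8%), and in the chromosome 8 stretch they made up 51 of 64 (79.7%).

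Outer and inner members of a neighbourhood had close values, with intervals that overlapped. In neighbourhoods of 20 or more members, 56.0% (52.2 to 59.7%) of the outermost 4 members were in all 3 lists, against 51.9% (50.6 to 53.2%) of those further in, and in neighbourhoods of 10 or more the values were 53.6% (51.3 to 55.9%) and 52.4% (51.4 to 53.5%). A member that followed one in all 3 lists was itself in all of them in 54.6% (53.3 to 55.8%) of cases, against 50.7% (49.4 to 52.0%) after one that was missing from a list. The same contrast outside neighbourhoods was 55.1% against 49.4%.

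The lists skip some of the caller's peak numbers, and these gaps were less frequent per listed peak inside neighbourhoods. Per 100 steps between listed peaks, 30.9 numbers were missing inside and 44.4 elsewhere at day 0, 41.8 and 50.1 at day 9, and 28.4 and 36.0 at day 28. Per Mb they were more frequent inside, at 46.9 against 10.5, 42.9 against 7.53 and 29.8 against 5.83. Neighbourhoods were chosen for having many listed peaks, so the rule shapes both contrasts, and they are given as a description only. Which peaks the missing numbers stood for is not given in the sources used here.

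In most of the values below, members just inside the threshold were close to regions just outside it. The 2858 members with exactly 10 neighbours were in all 3 lists in 53.6% of cases, had saturated shares of 21.4%, 15.2% and 23.7% at days 0, 9 and 28, and had a median width of 713 bp. The 3532 regions with exactly 9 neighbours had 53.5%, 21.9%, 15.3% and 23.6%, and 709.5 bp. The share found at day 28 alone was further apart, at 1.71% (1.30 to 2.26%) with exactly 10 neighbours and 2.49% (2.03 to 3.06%) with exactly 9, with intervals that overlapped. Over the whole scale this share was 3.32%, 3.69%, 2.83% and 2.54% with 0, 1 to 2, 3 to 5 and 6 to 9 neighbours. It was 1.70% in members. The threshold of 10 thus lay within a scale in each of these values, and the members are a range of that scale.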

How the data were processed

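CTCF ChIP-seq peaks of day 0, day 9 and day 28 MC3T3-E1 cells were used as deposited. The tools were Bowtie 0.12.8, MACS 1.4.1 and CASAVA 1.6 with the build mm9, per the submitters' processing notes. The way in which repeats and input entered each list is not given in the sources used here. The deposited score of each peak is in the fifth column and was taken to be MACS's −10 log10 p; scores were not normalized between lists by the authors as far as the sources show, and they grow with depth, which is unknown. Start and end positions were used as the authors' files give them.

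Peaks were merged with Python 3.11.15 (pandas 2.3.3, numpy 2.4.6), and the merge was checked with bedtools 2.31.1. The counting of neighbours was tested on simulated data. Shares have Wilson intervals from scipy 1.17.1. With 1 list per stage no test was run. Regions and neighbourhoods to be named were the 10 neighbourhoods with the most members, the 5 members with the most neighbours (1 per neighbourhood), and, among neighbourhoods of 20 or more members, the 3 highest and 3 lowest by share in all lists and by the day 9 and day 28 ratios to day 0. The 3 chromosomes with the highest and the 3 with the lowest share of members were named too. Others named, such as sites inside these neighbourhoods, were chosen after their values were seen. The members and lists were chosen with earlier results of these data known. Chromosomes X and Y were left out by the rule. The planned search for a motif, GC content and annotation was not run, because no mm9 genome or annotation was at hand.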

Additional observations from a re-analysis of the deposited data

Results flagged for a closer look

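Chromosome X lies outside the comparisons above. By the same count of neighbours, 13 of its 1814 regions (0.717%) had 10 or more neighbours, with at most 12. All of them lay between chrX:70686805 and chrX:70946170, and 5 were in all 3 lists. They came to attention because they were in data that the comparisons did not use; no control list existed to set them against. None of the 8 regions of chromosome Y had 10 or more neighbours.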

How the results depend on the processing

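Of 181 values under other settings, 119 stayed close to the reported ones, 56 moved and 6 turned direction. Close means within 1.5 times for a count and within the 95% interval of the reported value for a share, difference or median, so a small step in a precise value counts as moved. The 6 that turned all had a reported interval that excludes 0. Values with an interval that includes 0 are counted as close or moved even where their sign changed. Among them were the difference in the share in all lists with 15 or more neighbours, and the day 0 to 28 shift of other regions. That shift was −0.101 with equal list size and −0.307 with 15 or more neighbours. Joining only peaks that share 50% or more of the shorter one, midpoints in place of starts, and leaving out the 2 day 0 stretches or the largest neighbourhood (the last 2 chosen after seeing the data) moved none of the values computed under them by more. A gap of 25 kb between members gave 1335 neighbourhoods (reported: 968), and joining regions under 1 kb apart gave 653. With equal list size, there were 3550 members in 416 neighbourhoods, the day 0 saturated share of members exceeded that of other regions by 6.10 percentage points (reported: 3.77), and the difference in the share found at day 28 alone was −2.10 (reported: −1.27). With scores of at least 200 there were 4172 members in 463 neighbourhoods, saturated differences of 4.95, 9.32 and 9.04 (reported at days 9 and 28: 6.33 and 6.65), a day 28 alone difference of −1.56, and rank shifts of members of −5.54 (day 0 to 9), −3.94 (day 9 to 28) and −7.96 (day 0 to 28). With 8 or more neighbours there were 19998 members in 1546 neighbourhoods, and the difference in the share in all lists was 0.97 (0.15 to 1.79), while the reported interval (−0.70 to 1.25) includes 0. With 15 or more there were 2842 in 256, the difference in the share in all lists was −1.73 (reported: 0.28), the day 0 saturated difference was 2.88, the day 28 alone difference −1.57 and the day 0 to 9 shift −3.04. With saturated regions kept, the shifts of members were 0.76, −3.60 and 3.43, the first and the last in the opposite direction. Regions saturated at both stages are tied in that setting and have the same shift, and the part of these ties was not tested. With regions under 1 kb apart joined, chosen after seeing the data, there were 5974 members, a difference of 3.01 in the share in all lists and of 5.26 in the day 0 saturated share. The small day 9 to 28 shift of other regions turned to −0.0402 with equal list size, −0.122 with 15 neighbours, −0.413 with saturated regions kept and −0.0131 with regions joined. Of the day 28 regions, 83.8% of members and 81.4% of the others were also found at days 0 and 9. The difference was 2.45 percentage points (1.52 to 3.35). With density counted from day 28 peaks alone, the shares were 83.4% of dense and 81.7% of other day 28 regions. That difference was 1.68 (−0.10 to 3.34), with an interval that includes 0. No paired analysis was possible because each stage gave 1 list, the labels give no replicate numbers and no test was run. Depth is unknown, so a peak missing from a list does not show that CTCF was absent there.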
